A study of Sus scrofa with 13 samples.

Results

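GRB10 was followed as row ENSSSCG00000015631, 1 of the 21607 Ensembl genes listed in each of 13 total RNA libraries from pig, beside 10813 lncRNAs. The row was taken by its identifier and not by its values. Each of 11 libraries held a single tissue of the Guizhou mini-pig, a Chinese miniature breed. The 8 organs, all at 240 days of age, were adipose tissue, heart, kidney, liver, lung, ovary, spleen and testis, and longissimus dorsi, a skeletal muscle that runs along the back, was taken at day 0, day 30 and day 240. The other 2 were mixtures in which RNA of several breeds and ages had been pooled, a tissue mixture from multiple tissues and a muscle mixture from longissimus dorsi. The number of animals behind a library was not given in the sources used here. With 1 library for each tissue or stage, none of the differences below had a replicate check, and the 95% intervals cover the counting error of the reads only.

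GRB10 (growth factor receptor-bound protein 10) is an adaptor protein that binds the activated insulin and IGF1 receptors through its SH2 domain and dampens their signalling. It is also a substrate of the kinase complex mTORC1, which stabilises it, so that it takes part in a feedback from nutrient signalling to the receptor. Its gene is imprinted, with the active parental copy depending on the tissue, and in mice the loss of the maternal copy gives larger animals with more muscle. GRB7 and GRB14 are its closest relatives.

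Levels are given as RPKM, the reads on a gene divided by the length of the gene and by the read total of the library. The whole reads behind each value could be recovered, and GRB10 rested on a gene length of 4640 bases in all 13 libraries. Recovered totals ranged from 21685316 reads in ovary to 108337358 in the tissue mixture, but the share of these that fell on the listed features ranged from 11.6% in spleen to 38% in ovary, and RPKM is divided by the whole total. Each ratio was therefore also computed after scaling the libraries to the same sum of RPKM, by the median ratio over 10452 Ensembl genes above 0 in every library, and to the same sum without the 10 highest features. The rank of GRB10 within a library is the same under each of these.

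The matched markers of each organ had their highest summed level among single tissues in the library labelled with it, for all 8 organs. Heart rested on 1 of 4 markers, MYH6, with 4521 RPKM. MYH6 also had 379, 378 and 768 RPKM in muscle at day 0, day 30 and day 240. Skeletal muscle rested on 1 of 6, the muscle actin ACTA1, with 2012, 3183 and 2998 RPKM over those stages and 538 in heart. The lung library also held liver transcripts, with 343 RPKM of ALB against 5495 in liver, and 14.2 RPKM of TTR against 350. The liver row named APOA1 stood at 0.364 RPKM in liver. The embryonic and perinatal myosins MYH3 and MYH8 were not lower in the older muscle. MYH3 had 37.3, 80.7 and 96.3 RPKM, and MYH8 1888, 2442 and 3695, over day 0, day 30 and day 240. Myosin heavy chain genes are similar copies whose reads can be split between rows. Whether this affected the rows of MYH3 and MYH8 was not tested, so these values are uncertain.

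Among the single tissues, GRB10 was highest in muscle at day 0 and lowest in testis. Muscle at day 0 had 4.03 RPKM (668 reads, interval 3.73 to 4.34), muscle at day 30 had 1.91 RPKM (217 reads, 1.67 to 2.19) and muscle at day 240 had 2.90 RPKM (439 reads, 2.63 to 3.18). The lowest of the 3 muscle libraries thus lay at day 30. Heart, the other striated muscle, had 2.41 RPKM (402 reads, 2.18 to 2.66), and ovary had 2.10 RPKM (211 reads, 1.82 to 2.40). Lung had 1.56 RPKM (267 reads, 1.38 to 1.76), adipose tissue 1.18 RPKM (206 reads, 1.02 to 1.35) and spleen 0.794 RPKM (134 reads, 0.665 to 0.940). These 5 tissues spanned the middle of the range. Kidney followed with 0.575 RPKM (97 reads, 0.466 to 0.701), liver with 0.545 RPKM (78 reads, 0.431 to 0.681) and testis with 0.369 RPKM (66 reads, 0.285 to 0.469). No library came near the floor of 3 reads, which corresponded to at most 0.0298 RPKM in a single tissue. Less GRB10 RNA per cell and fewer cells that carry it cannot be told apart in such bulk RNA.

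**Figure D1:**
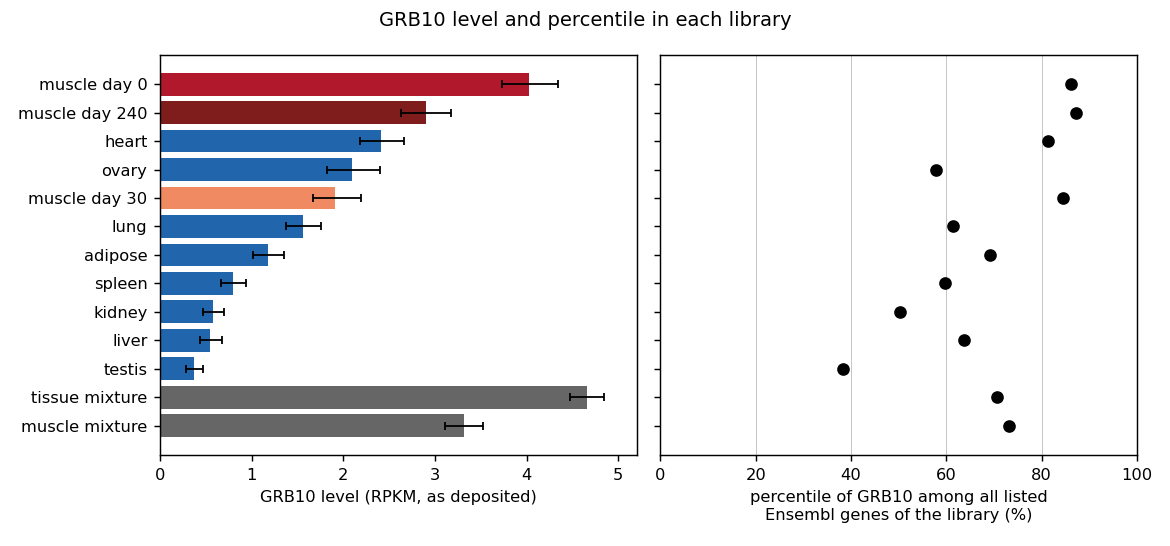
Left, GRB10 level in each library in RPKM as deposited (bars, ordered by level, with the 2 mixtures below), with the 95% Poisson interval of its reads. Right, the percentile of GRB10 among the 21607 listed Ensembl genes of the same library. Muscle is drawn in reds, organs in blue and mixtures in grey. The 3 muscle stages hold the highest percentiles, from 84.4 to 87.2, although ovary lies above muscle day 30 in RPKM.

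In that order of levels, some neighbours did not differ beyond counting error. Heart exceeded ovary 1.15-fold (0.970 to 1.36), ovary exceeded muscle day 30 1.10-fold (0.903 to 1.33) and kidney exceeded liver 1.05-fold (0.774 to 1.44). The intervals of these 3 ratios hold 1. The other 7 steps down the order had intervals above 1, with ratios from 1.20 for muscle day 240 over heart (1.05 to 1.38) to 1.48 for liver over testis (1.05 to 2.09). This order is that of RPKM as deposited. By the median ratio, muscle day 0 over muscle day 240 turned to 0.822 and lung over adipose tissue to 0.775. Lung over adipose tissue was also just below 1, at 0.994, without the 10 highest features. Ovary over muscle day 30 and kidney over liver were below 1 under each of the other 3 scalings.

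Ranked within its own library, GRB10 stood highest in muscle. It was at the 86.1 percentile of all listed Ensembl genes at day 0, at the 84.4 percentile at day 30 and at the 87.2 percentile at day 240, where it took rank 2768. Heart came next at the 81.3 percentile. Adipose tissue followed at 69.2, liver at 63.7, lung at 61.5, spleen at 59.7, ovary at 57.9, kidney at 50.3 and testis at 38.3, where GRB10 took rank 13338. By rank the muscle stages differed little, and ovary moved from the fourth place of the 11 by RPKM to the ninth. Against the median of the Ensembl genes above 0 in the same library, GRB10 was 3.54 times as high at day 0, 3.09 times at day 30 and 4.16 times at day 240, 2.28 times in heart, and 0.181 times in testis.

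To see how GRB10 in adult muscle stood against other organs of the same age and breed, muscle at day 240 was set against each of the 8 organs. The 8 ratios share the same muscle library. GRB10 was higher in muscle than in each organ, by 1.20-fold over heart (1.05 to 1.38), 1.38-fold over ovary (1.17 to 1.64) and 1.86-fold over lung (1.60 to 2.18). The ratio was 2.47 over adipose tissue (2.08 to 2.92), 3.65 over spleen (3.0 to 4.47) and 5.04 over kidney (4.04 to 6.35). The largest were 5.31 over liver (4.17 to 6.85) and 7.86 over testis (6.06 to 10.3). Under the other 3 scalings muscle at day 240 also stayed above all 8 organs, with ratios from 1.11 over heart to 27.9 over testis, though 2 of the 8 intervals held 1 with the same sum and 1 without the 10 highest features. The lung library with the liver transcripts stood above liver in GRB10 RPKM as deposited (1.56 against 0.545). It did not by the median ratio (1.06 against 1.11) or by percentile (61.5 against 63.7). The part of those transcripts in the lung ratio was not tested.

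A difference of at least 1 on the log2(RPKM + 0.1) scale was taken as 2-fold, for genes with at least 0.1 RPKM in either library. This scale understates changes of low genes. GRB10 passed it against 5 organs, with a difference of 2.22 for liver, 1.75 for spleen, 2.15 for kidney, 2.68 for testis and 1.23 for adipose tissue. Of all Ensembl genes compared, 29.9% were at least 2-fold higher in muscle at day 240 than in liver, 17.1% than in spleen, 10.2% than in kidney, 7.22% than in testis and 13.7% than in adipose tissue. GRB10 did not pass it against heart (0.26), lung (0.86) or ovary (0.45), where 12.4%, 9.0% and 4.99% of the genes did. Among the differences of all genes, that of GRB10 lay at the 97.5 percentile for testis, the 95.5 percentile for kidney, the 93.1 percentile for ovary and the 90.1 percentile for lung, and lowest, at the 74.9 percentile, for heart. In ovary the median of all genes differed by -2.24, so that the 0.45 of GRB10 stood well above that shift.

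The younger muscle was set beside the same organs, with the limit that age and tissue differ together. At day 0 GRB10 was above all 8 organs, from 1.67-fold over heart (1.48 to 1.90) to 10.9-fold over testis (8.47 to 14.3), and it stayed above all 8 under every scaling. At day 30 it was above 6 organs, from 1.23-fold over lung (1.02 to 1.48) to 5.19-fold over testis (3.92 to 6.94). The ratio to ovary was 0.912 (0.751 to 1.11), and 2.39 with the same sum, 5.41 by the median ratio and 3.16 without the 10 highest features. Heart was the organ above muscle at day 30, with a muscle to heart ratio of 0.794 (0.670 to 0.939). That direction did not hold under the other scalings, where the ratio to heart was 1.17 with the same sum, 1.33 by the median ratio and 1.17 without the 10 highest features.

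**Figure D2:**
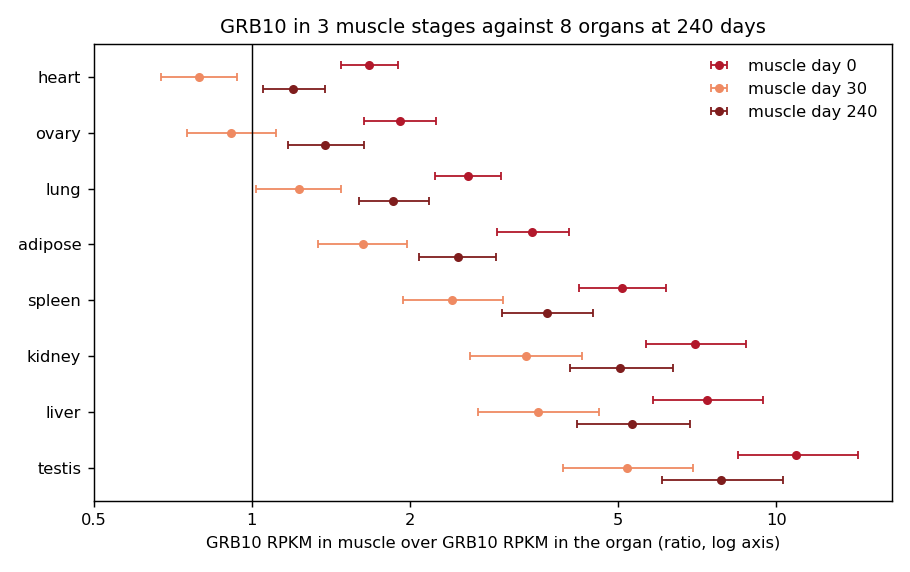
GRB10 RPKM of muscle at day 0, day 30 and day 240 divided by that of each organ at 240 days (log axis, points with the 95% counting interval, organs ordered by their level). A vertical line marks equal levels. Day 0 and day 240 lie to the right of it for all 8 organs, while day 30 lies to its left for heart and ovary.

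The spread of GRB10 over the 9 tissues taken at 240 days was summarised by tau, which is 0 for equal levels everywhere and 1 for a gene found in 1 tissue. GRB10 had a tau of 0.295, against a median of 0.430 over 15252 genes with at least 1 RPKM in at least 1 of these tissues. This placed it at the 24.1 percentile, among the more evenly spread genes. The value moved with the setting, from 0.190 with a pseudocount of 0.01 to 0.462 with a pseudocount of 1.

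Between muscle stages, GRB10 RPKM was lower at day 30 than at day 0 and intermediate at day 240. The ratio of day 30 to day 0 was 0.475 (0.406 to 0.554), that of day 240 to day 30 was 1.52 (1.28 to 1.79) and that of day 240 to day 0 was 0.720 (0.637 to 0.813). Only the step from day 0 to day 30 passed 2-fold, with a log2 difference of -1.04. Over the same step 41.2% of the Ensembl genes were at least 2-fold lower and 11.4% at least 2-fold higher, and the median of all genes was -0.75. From day 30 to day 240 the difference of GRB10 was 0.57, beside a median of 0.16 over all genes, of which 20.6% rose and 18.2% fell by at least 2-fold. From day 0 to day 240 it was -0.46 beside a median of -0.65, with 10.4% of the genes at least 2-fold higher and 36.8% lower. Among the differences of all genes GRB10 lay at the 39.9, 65.8 and 56.8 percentile, near the middle in each step.

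The scaling decided the direction of 2 of these steps. GRB10 at day 30 was below day 0 under every scaling, but only by a ratio of 0.720 with the same sum, 0.876 by the median ratio and 0.821 without the 10 highest features. The ratio of day 240 to day 30 was 1.39 by the median ratio, and it turned below 1 with the same sum (0.948) and without the 10 highest features (0.968). That of day 240 to day 0 stayed below 1 with the same sum (0.682) and without the 10 highest features (0.794), and turned to 1.22 by the median ratio. In all 3 of the other scalings the 4 highest single tissues were the 3 muscle stages and heart, with heart at the fourth place, and testis was lowest in each.

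**Figure D3:**
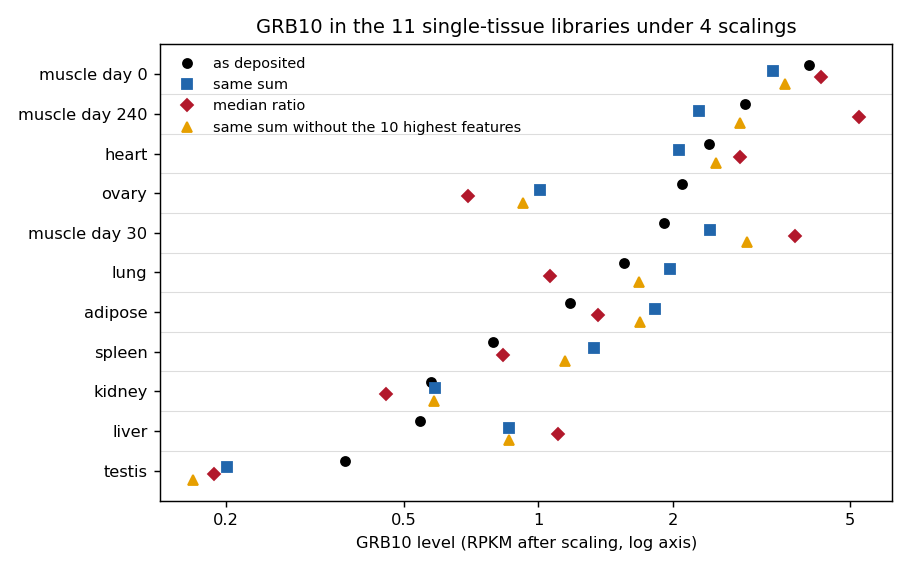
GRB10 level in the 11 single-tissue libraries (log axis, RPKM after scaling), with 1 symbol for each of 4 scalings. The order among the 3 muscle stages differs between the scalings, ovary moves from 2.10 RPKM as deposited to 0.695 by the median ratio, and testis is lowest under each.

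The markers of other cells in muscle also differed between the stages. Those of fibroblasts and connective tissue (4 of 5 matched) summed to 115 RPKM at day 0, 102 at day 30 and 43.4 at day 240, with 3 of the 4 lower at day 240 than at day 0. Endothelial markers (2 of 4 matched) summed to 13.6, 9.25 and 7.34 RPKM, and those of satellite cells, the muscle stem cells (2 of 3 matched), to 1.99, 1.10 and 0.910, with MYF5 at 1.12, 0.0860 and 0.0322 and MYOD1 at 0.870, 1.01 and 0.877. These are RPKM as deposited, and their order between stages was not followed under the other scalings. Markers of dividing cells (3 of 4 matched) summed to 0.314, 2.59 and 0.272 RPKM, and were highest at day 30, with CDK1 at 0 in the other 2 stages. Leukocyte markers (2 of 4 matched) summed to 0.715, 1.66 and 0.852 RPKM, those of red blood cells (2 of 3 matched) to 20.5, 8.25 and 9.98, and those of fat cells (2 of 5 matched) to 0.480, 0 and 0.138. The part of these cells in the GRB10 differences was not tested.

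In RPKM the mixtures stood among the libraries highest in GRB10. The tissue mixture had 4.66 RPKM (2342 reads, 4.47 to 4.85), the highest of the 13 libraries, 1.16-fold above muscle at day 0 (1.06 to 1.26) and 12.6-fold above testis (9.90 to 16.4). The muscle mixture had 3.32 RPKM (970 reads, 3.11 to 3.53), which lay between muscle at day 0 and muscle at day 240. Its ratio was 0.824 to day 0 (0.746 to 0.910), 1.73 to day 30 (1.5 to 2.02) and 1.14 to day 240 (1.02 to 1.28). Under the other 3 scalings it was below all 3 stages, with ratios to day 30 of 0.932 with the same sum, 0.465 by the median ratio and 0.743 without the 10 highest features, and to day 240 of 0.983, 0.335 and 0.768. Within the mixtures GRB10 ranked lower than in muscle, at the 70.6 percentile in the tissue mixture and the 73.2 percentile in the muscle mixture.

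The place of the mixtures also depended on the scaling. The median of all Ensembl genes was higher in the tissue mixture than in muscle at day 240 by 2.38 on the log2 scale, against a difference of 0.67 for GRB10, and higher in the muscle mixture than in muscle at day 240 by 1.63, against 0.19 for GRB10. The ratio of the tissue mixture to muscle at day 0 was 0.862 with the same sum, 0.721 without the 10 highest features and 0.402 by the median ratio, so that muscle at day 0 was then the higher. Between the mixtures the tissue mixture was 1.40-fold higher (1.3 to 1.52), and 0.987 times as high by the median ratio. The tissue mixture held 3577 RPKM of HBB, against at most 52.7 in a single tissue, and its testis markers (4 of 4 matched) summed to 0.180 RPKM, against 4653 in testis. Which tissues were mixed was not given in the labels.

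Of the family, GRB10 had the highest RPKM in 6 of 11 single tissues, namely the 3 muscle stages, spleen, lung and adipose tissue, and in both mixtures. GRB14, which also inhibits the insulin receptor, was the highest in the other 5. Such a comparison within a library involves no scaling between libraries, but it rests on the lengths of the rows, which the intervals do not cover. The GRB14 row is the shorter, as 3 reads in muscle at day 0 were 0.0616 RPKM for GRB14 and 0.0181 for GRB10. In heart GRB14 had 404 reads and GRB10 402, so the difference there came from the lengths. In ovary, testis, kidney and liver GRB14 also had more reads than GRB10. GRB14 had 51.3 RPKM in ovary, 24.5 times GRB10 (21.2 to 28.4), and 31.4 RPKM in testis, 85.1 times GRB10 (66.5 to 111). It had 10.2 RPKM in kidney, 8.24 in heart and 5.10 in liver, which were 17.7 (14.2 to 22.3), 3.42 (2.97 to 3.94) and 9.35 (7.18 to 12.3) times GRB10. Testis, kidney and liver, the tissues lowest in GRB10 RPKM as deposited, were thus among the 5 in which GRB14 was above it. So were heart and ovary, which were among the higher organs in GRB10 RPKM. By percentile liver (63.7) was not among the lowest in GRB10, as it stood above lung (61.5), spleen (59.7) and ovary (57.9).

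In muscle at day 0 and day 30 GRB14 was at or below its floor. It had 3 reads at day 0 (0.0616 RPKM), 0 at day 30, where 3 reads would be 0.0901 RPKM, and 27 reads at day 240 (0.607 RPKM), at least 2-fold higher than at both earlier stages under every scaling. GRB10 was 65.4 times as high at day 0 (22.3 to 318) and 4.77 times as high at day 240 (3.24 to 7.33). At day 30 it stood at 21.2 times the GRB14 floor of 3 reads. GRB7, the third member, had no read in any muscle library. GRB10 stood at 95.2 times the GRB7 floor of 3 reads at day 0, 30.9 times at day 30 and 62.5 times at day 240. These multiples of a floor are not lower limits, as counting error does not enter them. GRB7 was above GRB10 in kidney alone, with 2.43 RPKM, 4.22 times GRB10 (3.28 to 5.47).

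Against the insulin receptor INSR, which GRB10 binds, GRB10 was the higher in RPKM in 2 of the 13 libraries. This comparison rests on the lengths of the 2 rows, which divide the reads and are not covered by the intervals. The INSR row is the shorter, as 3 reads in muscle at day 0 were 0.0468 RPKM for INSR and 0.0181 for GRB10. In adipose tissue GRB10 had 206 reads and INSR 109, while in kidney GRB10 had 97 and INSR 833. INSR had 0.967 RPKM in muscle at day 0, 2.67 at day 30 and 0.991 at day 240. GRB10 was 4.16 times INSR at day 0 (3.21 to 5.49), 0.717 times at day 30 (0.570 to 0.905) and 2.92 times at day 240 (2.22 to 3.92). The interval at day 30 overlapped neither of the others. In the organs the ratio of GRB10 to INSR ranged from 0.0450 in kidney (0.0361 to 0.0556), where INSR had 12.8 RPKM, to 0.730 in adipose tissue (0.576 to 0.930). For the tissue mixture the ratio was 0.475 (0.447 to 0.505). For the muscle mixture it was 0.493 (0.448 to 0.543), below that of each single muscle stage.

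**Figure D4:**
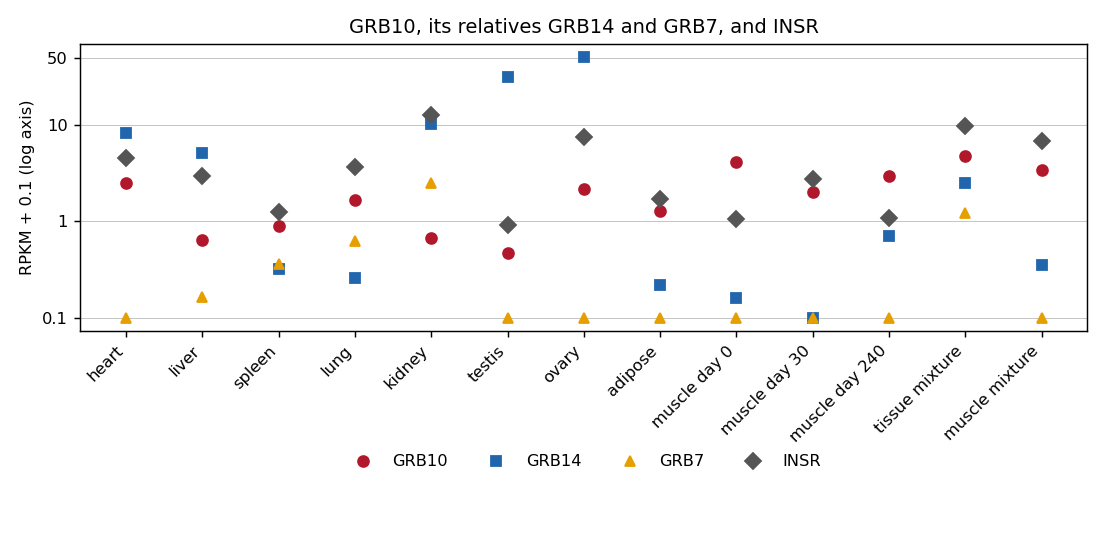
RPKM + 0.1 (log axis) of GRB10, its relatives GRB14 and GRB7 and the insulin receptor INSR in each of 13 libraries; points at 0.1 had no reads. GRB10 lies above INSR in muscle at day 0 and day 240, and GRB14 ranges from no read in muscle at day 30 to 51.3 RPKM in ovary.

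The genes of insulin and growth signalling were taken as a list of 48 further symbols, of which 39 were paired with a listed identifier. Those not paired included IGF2, INS, IRS2 and AKT1. From day 0 to day 30, 3 of 32 genes compared were at least 2-fold higher and 9 at least 2-fold lower, with a median of -0.58 beside the -0.75 of all genes. Over all genes 11.4% were higher and 41.2% lower. By the median ratio the split of the list was 10 higher and 1 lower, beside 23.5% and 20.1% of all genes. From day 30 to day 240 it was 6 higher and 5 lower of 34, with a median of 0.26, beside 20.6% and 18.2% of all genes. With the same sum this became 2 higher and 9 lower, beside 9.35% and 30.9%. From day 0 to day 240 it was 4 higher and 5 lower of 33, with a median of -0.41, beside 10.4% and 36.8% of all genes. By the median ratio it was 8 higher and 1 lower, beside 21.1% and 20.0%.

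Of the 4 receptors, 3 were highest at day 30. INSR, IGF1R and IGF2R, the last of which clears IGF2 from the cell surface, were at least 2-fold higher at day 30 than at day 0 and at least 2-fold lower at day 240 than at day 30, under every scaling. INSR differed by 1.38 and then -1.34 on the log2 scale. IGF2R had 0.436, 1.19 and 0.522 RPKM over the stages, a difference of 1.26 and then -1.05. The row paired with IGF1R had 5 reads at day 0, 42 at day 30 and 0 at day 240, so that its changes rest on few reads. GRB10 in RPKM as deposited went the other way in both steps, but from day 30 to day 240 it turned to a ratio of 0.948 with the same sum and 0.968 without the 10 highest features, the direction of these receptors. GHR, the growth hormone receptor, had 4.55, 2.45 and 7.67 RPKM and like GRB10 was lowest at day 30 in RPKM as deposited. The ligand IGF1 had 5.78, 6.85 and 3.0 RPKM and was at least 2-fold lower at day 240 than at day 30 under every scaling.

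Among docking proteins, IRS1, which carries the signal on from the insulin receptor, was at least 2-fold higher at day 240 than at both earlier stages under every scaling, with 2.34, 2.91 and 10.6 RPKM and a difference of 2.13 from day 0. SHC1, which couples receptors to the RAS pathway, had 2.27, 0.464 and 0.463 RPKM and was lower at both later stages under every scaling, by -2.07 from day 0 to day 240. The lower RPKM at day 30 was seen for GRB10 and also for the phosphoinositide 3-kinase subunits PIK3CA (6.25, 2.33 and 5.05 RPKM) and PIK3CB (0.782, 0.218 and 0.693 RPKM). It was common, as 41.2% of all Ensembl genes compared were at least 2-fold lower at day 30 than at day 0 in RPKM as deposited. Neither subunit was 2-fold lower under every scaling. The regulatory subunit PIK3R2 was 2-fold higher at day 240 than at day 0 under every scaling, from 6 reads to 46.

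Of the mTOR pathway, which controls growth and acts on GRB10, MTOR itself had 2.07, 2.11 and 1.24 RPKM over the stages. RICTOR (6.27, 2.88 and 4.69 RPKM), RHEB (15.8, 5.84 and 12.1 RPKM) and the translation inhibitor EIF4EBP1 (23.9, 10.5 and 18 RPKM) were each at least 2-fold lower at day 30 than at day 0 in RPKM as deposited, with day 240 in between, as for GRB10. None of these 3 was 2-fold lower under every scaling, and 41.2% of all Ensembl genes compared were 2-fold lower over that step as deposited. RPTOR, the scaffold of mTORC1, had 0.534, 0.680 and 0.206 RPKM and was lower at day 240 than at day 30 under every scaling. AKT1S1, an inhibitor within mTORC1, rose from 0.541 RPKM at day 0 to 1.55 at day 240, past 2-fold under every scaling. GIGYF2, which binds GRB10, had 14.8, 10.2 and 12.5 RPKM. The rows named GIGYF1 and SLC2A4, the insulin-regulated glucose transporter, had 0 or 1 read in each muscle library. Both rows had at most 0.0370 RPKM in any of the 13 libraries. Whether they capture the RNA of these genes was not tested, so they do not show that it is absent from muscle.

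**Figure D5:**
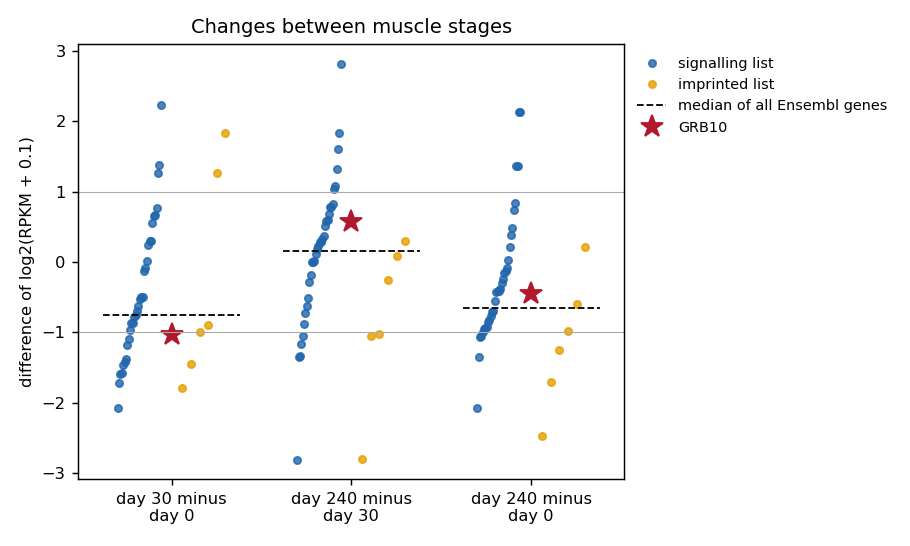
Differences of log2(RPKM + 0.1) between muscle stages for the compared genes of the signalling list (blue) and the imprinted list (orange), with GRB10 as a star and the median of all Ensembl genes as a dashed line; thin lines mark 2-fold. GRB10 lies within the spread of the signalling list in each step. From day 30 to day 240 its 0.57 lies above the compared imprinted genes, the highest of which is SNRPN at 0.30.

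Since GRB10 is imprinted, 26 further genes known to be imprinted in mammals were read, of which 10 were paired and 6 passed the minimum in the muscle comparisons. From day 0 to day 30, 2 of the 6 were at least 2-fold higher (PEG3 and IGF2R, the latter also on the signalling list) and 2 lower (PLAGL1 and SGCE), beside 11.4% and 41.2% of all genes. From day 30 to day 240, none was higher and 3 were lower, beside 20.6% and 18.2%. From day 0 to day 240 none was higher and 3 were lower, beside 10.4% and 36.8%, with a median of -1.11 beside the -0.65 of all genes. PLAGL1, a zinc finger transcription factor, had 1.97, 0.658 and 0.274 RPKM over the stages, and SGCE, a sarcoglycan of the muscle membrane, had 1.58, 0.384 and 0.415. Both were lower at day 240 than at day 0 by over 2-fold under every scaling, by -2.47 and -1.70 on the log2 scale. MEST had 0.478, 0.191 and 0.143 RPKM. GRB10, at 2.90 RPKM in muscle at day 240, was above each of the 10 paired genes there, the nearest being SNRPN at 0.981, while the other 16 have no value here.

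The neighbour DDC, which makes dopamine and serotonin from their precursors, lies next to GRB10 in the Sscrofa11.1 assembly. It had 17.6 RPKM in kidney and 13.7 in liver, at most 0.421 in the other organs, and 0, 0 and 1 read in muscle at day 0, day 30 and day 240. Another neighbour, the sperm protein gene ZPBP, had 12.6 RPKM in testis and at most 0.393 elsewhere in single tissues. FIGNL1 had at most 1.18 RPKM in a single tissue, in ovary. None of the 3 shared the high level of GRB10 in muscle and heart.

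The genes with the pattern most like GRB10 were sought by the Pearson correlation of log2(RPKM + 0.1) over the 11 single-tissue libraries, among 15323 genes with at least 1 RPKM in at least 1 of them. All genes of a library share its depth and its counted share, so the correlation is a description. Of the 10 highest, 5 had a name. PKIA, an inhibitor of the cAMP-dependent kinase, had an r of 0.937, with 25.1 RPKM in heart, 20.0, 14.2 and 14.7 over the muscle stages and 0.0848 in liver. DMD, which encodes dystrophin of the muscle membrane, had an r of 0.904, with 88.2, 64.1 and 76.1 RPKM over the stages and 1.99 in testis. SYNC, an intermediate filament protein of muscle (0.903), TM6SF1 (0.897) and the actin-binding TWF2 (0.896) completed the named genes. The highest of all was the unnamed ENSSSCG00000012207 at 0.943. By the rank correlation, with a pseudocount of 1, with the same sum and over the 9 tissues at 240 days alone, 5 to 7 of the 10 were again among the first 10.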

How the data were processed

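Total RNA of 13 pig libraries was sequenced, 8 from organs, 3 from longissimus dorsi and 2 from mixtures, and groups were taken from the sample labels. Ribosomal RNA had been depleted and strand-specific libraries made by either of 2 protocols, with no protocol given per library. TopHat 1.3.2 and Cufflinks are named in the submitters' processing notes. The study's methods name htseq-count for the reads of lncRNAs, and do not say how reads of the Ensembl genes in these libraries were counted. The genome build of these libraries was not given in the sources used here. The authors deposited 1 RPKM value per feature and library, with no replicates, for the same 32420 features in each. Values of GRB10 and of genes compared with it were used as deposited, and were divided by the total reads of a library rather than by its counted reads.

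The total reads of each library were recovered from common divisors of the inverted RPKM values within it. With these totals, the length of each feature and its whole reads were recovered from its values over the libraries. Whole reads resulted for all 22695 features above 0 in at least 4 libraries and all 6767 above 0 in 1 to 3, and the reads of GRB10 lay within 1.4e-12 of whole numbers. A run on simulated data returned 13 of 13 library totals correctly, and, of 22516 features detected in 4 or more libraries, 22413 with the right length and reads. Intervals are exact Poisson (levels) or exact conditional binomial (ratios) at 95% and cover counting error only. PCR reads without molecular identifiers are not independent molecules. A level of 0 was read against a floor of 3 reads. No test was possible with 1 library per tissue or stage. Changes of 2-fold were counted on log2(RPKM + 0.1) for genes with at least 0.1 RPKM in either library.

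Symbols were paired with identifiers by a table of Ensembl names, which names 11654 of the 21607 Ensembl genes. GRB10, its lists and markers were chosen with earlier results of these data known, and the comparison of GRB10 with INSR within libraries was added after its values were seen. Named were GRB10, its relatives GRB7 and GRB14, paired members of the lists with those past 2-fold in every scaling first, the neighbours, and the 10 genes most like GRB10 where they had a name. Alternatives were 3 scalings, other pseudocounts and minimum levels, other sets of ranked features and other measures of likeness. Python 3.11.15 with numpy 2.4.6, pandas 2.3.3, scipy 1.17.1 and matplotlib 3.10.9 was used.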

Additional observations from a re-analysis of the deposited data

How the results depend on the processing

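No paired analysis was possible because there was 1 library per tissue or stage. Of 31 GRB10 ratios under 3 scalings each, 21 values stayed within the counting interval. Another 57 moved beyond it in the same direction or from an interval that held 1, and 15 turned, over 6 ratios. Ratios between organs were not among the 31, nor were those of the tissue mixture to libraries other than muscle day 0. Some of these turned too by the median ratio, such as lung to adipose at 0.775 and tissue mixture to muscle day 240 at 0.330. Both were also below 1 without the 10 highest features, at 0.994 and 0.908. The cause of these shifts was not tested. With the same sum, the ratios that turned were muscle day 240 to muscle day 30 at 0.948, muscle day 30 to heart at 1.17, muscle mixture to muscle day 30 at 0.932, muscle mixture to muscle day 240 at 0.983 and tissue mixture to muscle day 0 at 0.862. By the median ratio, the ratios that turned were muscle day 240 to muscle day 0 at 1.22, muscle day 30 to heart at 1.33, muscle mixture to muscle day 30 at 0.465, muscle mixture to muscle day 240 at 0.335 and tissue mixture to muscle day 0 at 0.402. Without the 10 highest features, the ratios that turned were muscle day 240 to muscle day 30 at 0.968, muscle day 30 to heart at 1.17, muscle mixture to muscle day 30 at 0.743, muscle mixture to muscle day 240 at 0.768 and tissue mixture to muscle day 0 at 0.721. With the same sum, other ratios moved in the same direction or from an interval that held 1. Muscle day 0 had ratios of 3.92 to liver, 2.52 to spleen, 1.71 to lung, 16.8 to testis, 3.32 to ovary and 1.84 to adipose. Muscle day 30 had ratios of 0.720 to muscle day 0, 1.82 to spleen, 12.1 to testis, 2.39 to ovary and 1.33 to adipose. Muscle day 240 had ratios of 2.67 to liver, 1.72 to spleen, 1.17 to lung, 3.91 to kidney, 11.4 to testis, 2.26 to ovary and 1.26 to adipose. Muscle mixture had ratios of 0.671 to muscle day 0. By the median ratio, other ratios moved in the same direction or from an interval that held 1. Muscle day 0 had ratios of 3.89 to liver, 4.06 to lung, 9.40 to kidney, 22.9 to testis and 6.18 to ovary. Muscle day 30 had ratios of 0.876 to muscle day 0, 4.52 to spleen, 3.56 to lung, 8.24 to kidney, 20.1 to testis, 5.41 to ovary and 2.76 to adipose. Muscle day 240 had ratios of 1.84 to heart, 6.28 to spleen, 4.94 to lung, 11.4 to kidney, 27.9 to testis, 7.52 to ovary and 3.83 to adipose. Muscle mixture had ratios of 0.407 to muscle day 0. Without the 10 highest features, other ratios moved in the same direction or from an interval that held 1. Muscle day 0 had ratios of 1.43 to heart, 4.15 to liver, 3.11 to spleen, 2.12 to lung, 21.2 to testis, 3.85 to ovary and 2.11 to adipose. Muscle day 30 had ratios of 0.821 to muscle day 0, 1.74 to lung, 5.01 to kidney, 17.4 to testis and 3.16 to ovary. Muscle day 240 had ratios of 3.30 to liver, 2.47 to spleen, 16.8 to testis, 3.06 to ovary and 1.68 to adipose. Muscle mixture had ratios of 0.610 to muscle day 0.

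Among Ensembl genes above 0 in the library, the percentile of GRB10 was 70.9 in heart, 45.6 in liver, 41.7 in spleen, 50.6 in lung, 33.8 in kidney, 22.6 in testis, 45.3 in ovary, 57.3 in adipose, 77.3 in muscle day 0, 75.7 in muscle day 30, 78.9 in muscle day 240, 66.8 in tissue mixture and 66.3 in muscle mixture. With the lncRNAs ranked too, it was 87.1 in heart, 74.4 in liver, 71.7 in spleen, 73.3 in lung, 63.8 in kidney, 46.9 in testis, 70.9 in ovary, 78.7 in adipose, 90.6 in muscle day 0, 89.4 in muscle day 30, 91.3 in muscle day 240, 80.0 in tissue mixture and 81.7 in muscle mixture. Tau was 0.190 with a pseudocount of 0.01, 0.462 with a pseudocount of 1, 0.235 with the same sum and 0.432 by the median ratio. The 1465 Ensembl genes at least 2-fold higher in muscle day 30 than in muscle day 0 became 498 with at least 1 RPKM, 271 with a pseudocount of 1, 2295 with the same sum, 3008 by the median ratio and 2732 without the 10 highest features. The 5286 Ensembl genes at least 2-fold lower in muscle day 30 than in muscle day 0 became 2311 with a pseudocount of 1, 3160 with the same sum, 2572 by the median ratio and 2709 without the 10 highest features. The 2551 Ensembl genes at least 2-fold higher in muscle day 240 than in muscle day 30 became 1557 with at least 1 RPKM, 828 with a pseudocount of 1, 1157 with the same sum and 1302 without the 10 highest features. The 2258 Ensembl genes at least 2-fold lower in muscle day 240 than in muscle day 30 became 783 with at least 1 RPKM, 376 with a pseudocount of 1, 3824 with the same sum and 3864 without the 10 highest features. The 1313 Ensembl genes at least 2-fold higher in muscle day 240 than in muscle day 0 became 557 with at least 1 RPKM, 338 with a pseudocount of 1 and 2662 by the median ratio. The 4639 Ensembl genes at least 2-fold lower in muscle day 240 than in muscle day 0 became 2773 with at least 1 RPKM, 1544 with a pseudocount of 1 and 2516 by the median ratio. The 3 signalling genes at least 2-fold higher in muscle day 30 than in muscle day 0 became 7 with the same sum, 10 by the median ratio and 9 without the 10 highest features. The 9 signalling genes at least 2-fold lower in muscle day 30 than in muscle day 0 became 3 with the same sum, 1 by the median ratio and 1 without the 10 highest features. The 6 signalling genes at least 2-fold higher in muscle day 240 than in muscle day 30 became 2 with the same sum and 2 without the 10 highest features. The 5 signalling genes at least 2-fold lower in muscle day 240 than in muscle day 30 became 9 with the same sum and 9 without the 10 highest features. The 4 signalling genes at least 2-fold higher in muscle day 240 than in muscle day 0 became 8 by the median ratio. The 5 signalling genes at least 2-fold lower in muscle day 240 than in muscle day 0 became 1 by the median ratio and 2 without the 10 highest features. The 2 imprinted genes at least 2-fold lower in muscle day 30 than in muscle day 0 became 1 with the same sum, 1 by the median ratio and 1 without the 10 highest features. Of the 10 genes most like GRB10, 5 were again among the first 10 by the rank correlation, 6 with the same sum and 6 over the 9 tissues at 240 days. By the median ratio, the signalling genes higher at day 240 than at day 30 went from 6 to 4 and the imprinted genes lower at day 240 than at day 0 from 3 to 2. The other counts moved by at most 1.5-fold, and the other values of the 31 ratios stayed within their counting interval. The reads of GRB10, 66 in testis to 2342 in the tissue mixture, limit each level to its interval, and the spread between animals is unknown.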
